A study of Homo sapiens with 6 samples.

Results

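The 10 integrin genes that fibrogenic cells are known to use, ITGB1, ITGB3, ITGB5, ITGB8, ITGAV, ITGA1, ITGA2, ITGA5, ITGA6 and ITGA11, were examined in LX-2 cells stimulated with recombinant human Sema3C (rhSema3C). They were chosen by name, as the receptors for collagen, fibronectin and laminin and as the αV partners that activate latent TGF-β, and all 10 were found among the 33900 genes of the table. LX-2 is an established human hepatic stellate cell line, labelled wild type (WT), and all cultures were kept in DMEM with 10% FBS. In this RNA sequencing experiment, 3 samples received rhSema3C at 300 ng/ml for 48 h and 3 control samples received PBS for the same time. The study proposed ITGB1 as a receptor for Sema3C together with neuropilin NRP1. By western blotting, it also reported more ITGB1 protein in LX-2 cells given rhSema3C. The comparison asks whether rhSema3C changed the mRNAs of ITGB1 and of its partner subunits. The samples are labelled biological replicates of 1 cell line, so the p-values cover the spread between these samples only, and protein and surface level were not measured in these data.

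Integrins are receptors made of 1 α and 1 β subunit that span the plasma membrane and tie the extracellular matrix to the actin cytoskeleton. The α subunit largely sets the ligand, and β1 pairs with the widest range of α subunits. In hepatic stellate cells, collagen-binding integrins serve attachment to fibrillar collagen, α5β1 binds fibronectin, and αV integrins can release active TGF-β from its latent complex.

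Total counts per sample were between 68267808 and 89245585. Of the genes tested with edgeR, 31.7% were higher and 30.6% were lower with rhSema3C at an adjusted p below 0.05. This split, 4490 higher against 4339 lower, shifted to 6934 against 2428 when FPKM values were rescaled to equal sums (TPM), to 5641 against 3433 with library size alone, and to 5477 against 3461 with limma on log2(FPKM + 1). The median log2 fold change of all tested genes was 0.02, and it was 0.23 under TPM scaling and 0.13 with library size alone. The direction of change also followed the base composition of the transcripts. Among 2835 tested genes whose longest annotated transcript had a GC content of 38 to 43%, 59.4% were higher and 6.53% lower, whereas among 1370 genes at 52 to 55% GC, 15.5% were higher and 43.9% lower. GC content and transcript length together accounted for 16.5% of the variance of the log2 fold changes, and each member is therefore also given after their removal, an alternative chosen after the data were seen. Whether the composition of the libraries contributed to the changes was not tested.

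The labelled cell type was checked against its markers. Among 14 stellate cell and fibroblast markers, 10 had a mean of at least 1 FPKM, while COL1A2, PDGFRA, DES and DCN were below that level, and the summed FPKM was 1529 to 1580 in the PBS samples and 1221 to 1288 in the rhSema3C samples. Hepatocyte markers summed to at most 0.132 FPKM in any sample. Of the leukocyte markers, only CD14 and CD68 averaged at least 1 FPKM, and CD68 had a mean of 80.2 FPKM. PTPRC, CD3E, CD79A, LYZ and ITGB2 averaged at most 0.299 FPKM. The leukocyte list summed to 95.4 to 104 FPKM with PBS and 67.4 to 73.1 FPKM with rhSema3C. The part of these markers in the integrin values was not tested.

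The promoters of ITGA1, ITGA2 and ITGA11 are shown first, as collagen-binding α subunits that were higher with rhSema3C. They were picked by that outcome, where 31.7% of all tested genes were higher. ITGA11 was too scarce to be tested among these and was higher in a fit of all 33900 genes, where 12.5% were higher. The call of ITGA2 ended with GC content and length removed, at 0.04 (adjusted p = 0.33). The windows run from 250 bases before to 50 bases after the annotated start, 5′ to 3′ on the gene's own strand (RefSeq, GRCh38.p14), at chr5:52787666-52787965 (+ strand) for ITGA1, chr5:52989102-52989401 (+ strand) for ITGA2 and chr15:68432114-68432413 (− strand) for ITGA11. Capitals mark the GC box GGGCGG and the NF-κB motif, searched on both strands. The window of ITGA1 is also the start given for PELO, a gene that lies within ITGA1, and 2 of the 7 annotated ITGA1 transcripts begin within 100 bases of it.
ITGA1: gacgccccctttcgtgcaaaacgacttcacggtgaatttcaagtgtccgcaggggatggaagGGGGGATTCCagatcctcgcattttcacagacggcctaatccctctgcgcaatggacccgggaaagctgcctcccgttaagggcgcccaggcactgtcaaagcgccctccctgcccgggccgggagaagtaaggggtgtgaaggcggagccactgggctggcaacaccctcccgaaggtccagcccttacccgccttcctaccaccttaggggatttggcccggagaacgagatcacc
ITGA2: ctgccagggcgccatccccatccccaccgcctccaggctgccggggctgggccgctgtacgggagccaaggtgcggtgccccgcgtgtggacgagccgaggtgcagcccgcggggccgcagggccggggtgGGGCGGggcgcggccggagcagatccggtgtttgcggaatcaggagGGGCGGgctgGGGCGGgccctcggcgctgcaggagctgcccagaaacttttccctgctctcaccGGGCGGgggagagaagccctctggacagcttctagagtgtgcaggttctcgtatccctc
ITGA11: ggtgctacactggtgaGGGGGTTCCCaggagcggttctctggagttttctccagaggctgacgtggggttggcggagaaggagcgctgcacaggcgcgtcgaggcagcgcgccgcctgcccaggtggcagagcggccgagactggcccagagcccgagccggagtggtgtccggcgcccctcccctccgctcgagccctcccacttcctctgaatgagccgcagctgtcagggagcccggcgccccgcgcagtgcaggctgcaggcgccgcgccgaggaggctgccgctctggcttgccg
The ITGA2 window held 4 GC boxes and no NF-κB motif, while the ITGA1 and ITGA11 windows each held 1 NF-κB motif and no GC box. A promoter was matched for 9 of the 10 genes, ITGB3 being the exception. Where a gene had several starts, the one with the most annotated transcript starts within 100 bases was used. These numbered 6 of 19 transcripts for ITGB1, 1 of 13 for ITGA5 and 0 of 5 for ITGB8. GC boxes were found in 6 of these 9 windows and in 45.0% of all 35116 promoters of the same length, and the NF-κB motif in 5 of 9 against 11.3%. The 5 genes with the NF-κB motif were ITGA1 and ITGA11, which rose, ITGA5, which fell, ITGB1, which had no call, and ITGB8. Like ITGA11, ITGB8 was not among the tested genes, and it had no call in the fit of all genes. In the ITGA5 window the NF-κB motif overlapped the TEAD motif GGAATG. The AP-1 site TGANTCA, held by 7.71% of all promoters, was found in ITGA5 alone among the 9. The 3 windows printed had a GC content of 61.7%, 72.7% and 72.0%, against a median of 58.7% over all promoters. The others had 78.3% (ITGB1), 71.7% (ITGB8), 70.7% (ITGAV), 69.3% (ITGA5), 53.0% (ITGA6) and 49.7% (ITGB5). The motif shares were not matched for GC content. These matches are descriptions of sequence and not of binding.

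In PBS-treated cells ITGB1 had the highest level of the 10 genes. FPKM, which is scaled to gene length, was used to compare levels between genes. ITGB1 had a mean of 223 ± 6.76 FPKM (SD, n = 3) and ranked 125 among all genes by its mean over the 6 samples. Among the 10, ITGA5 followed at 103 ± 2.34 FPKM, while ITGA3, which is not among them, was at 161 FPKM. ITGB5, ITGA2, ITGAV, ITGB3 and ITGA6 lay between 8.04 and 13.0 FPKM, ITGA1 at 2.30 FPKM, ITGA11 at 0.233 FPKM and ITGB8 at 0.092 FPKM. ITGA2 and ITGAV could not be ordered, since their samples overlapped in both groups. With rhSema3C the order became ITGB1, ITGA5, ITGA2, ITGAV, ITGB5, ITGA6, ITGB3, ITGA1, ITGA11 and ITGB8, so ITGA2 and ITGAV moved above ITGB5. The FPKM values rest on 1 fixed length per gene, which was 1.48 times the joined annotated exons for ITGB3 and 0.998 to 1.05 times for the other 9 genes. Per kilobase of the longest transcript, ITGB3 ranked 4 in PBS-treated cells, above ITGAV and ITGA2, and 6 in rhSema3C-treated cells, above ITGA6, so its place in the order depends on the length used.

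**Figure D1:**
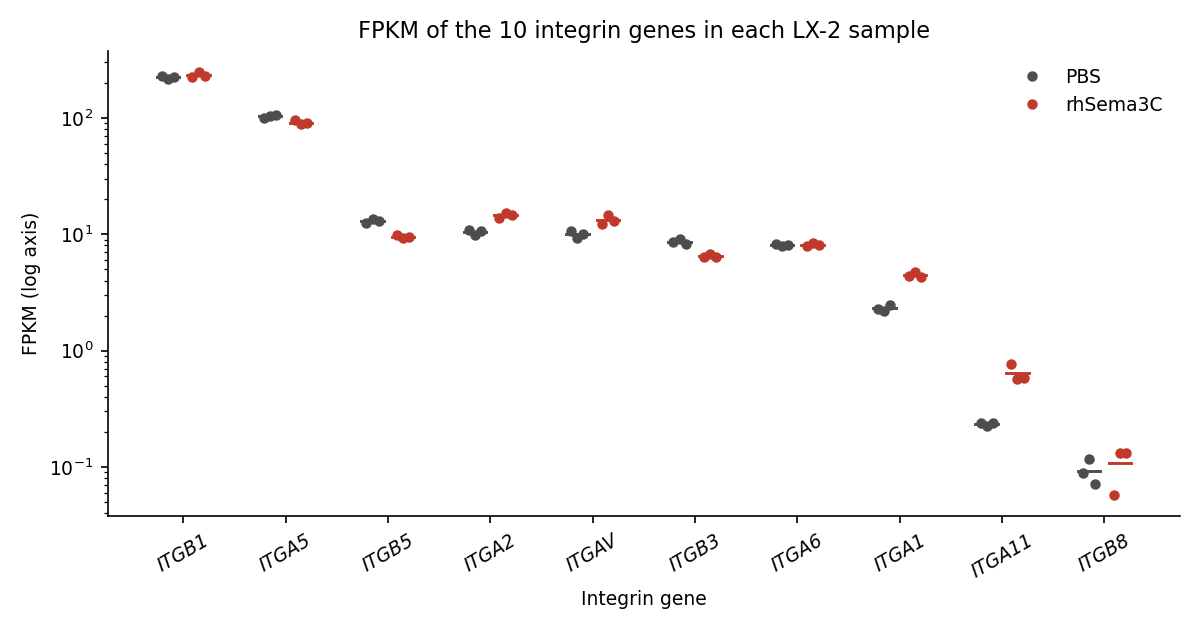
FPKM (log axis) of the 10 integrin genes in each of the 3 PBS samples (grey) and 3 rhSema3C samples (red), with bars at the group means. ITGB1 was near 223 and 233 FPKM in the 2 groups, ITGA1 and ITGA11 were higher in every rhSema3C sample, and ITGB3 and ITGB5 were lower in every rhSema3C sample.

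Among the 10 genes, 8 passed the filter of a mean of at least 0.5 FPKM and were tested. ITGA1, ITGA2 and ITGAV were higher, ITGB3, ITGB5 and ITGA5 were lower, and ITGB1 and ITGA6 had no call. The counts of 3 of 8 in each direction are to be read against the 31.7% and 30.6% of all tested genes. The groups did not overlap for 7 of the 8, against 67.8% of all tested genes. None of the 8 changed by more than 2-fold at an unadjusted p below 0.05 with edgeR or with DESeq2. With edgeR, 5.54% of all tested genes passed both thresholds. The 6 members with an unadjusted p below 0.05 were the 6 called above. With GC content and length removed, 1 of the 8 was higher (ITGA1) and 5 were lower (ITGB1, ITGB3, ITGB5, ITGA5 and ITGA6), in a fit where 24.7% of all tested genes were higher and 31.1% lower.

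ITGB1 (ENSG00000150093, chr10:32900318-33005792, − strand, GRCh38), the common β subunit of the collagen, fibronectin and laminin receptors, had no call. Its normalised counts (CPM, counts scaled to library size with TMM factors) were 1451, 1383 and 1436 in PBS replicates 1 to 3 and 1330, 1476 and 1344 in rhSema3C replicates 1 to 3. The groups overlapped, with rhSema3C replicate 2 above every PBS sample. The log2 fold change was -0.04 (SE 0.05, adjusted p = 0.46), with a 95% confidence interval from -0.14 to 0.06, or from -9.47% to 4.36%. Each sample held between 94955 and 135697 ITGB1 counts. The sign depended on the scaling, as the mean FPKM was 223 ± 6.76 with PBS and 233 ± 13.6 with rhSema3C, and TPM scaling gave 0.18 (adjusted p = 0.0072 with limma). With GC content, which is 40% for ITGB1, and length removed, ITGB1 was lower by a log2 fold change of -0.36 (SE 0.03, adjusted p = 1.7e-06). The tested genes of 38 to 43% GC had a median log2 fold change of 0.30. The transcript ITGB1-DT, read from the other strand, shares 42 exonic bases with ITGB1 and had 0.521% of its counts.

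Among the 4 collagen-binding α subunits, 2 were tested, and both, ITGA1 and ITGA2, were higher with rhSema3C, against 31.7% of all tested genes. The call of ITGA2 ended with GC content and length removed. ITGA11 and ITGA10 lay below the filter. In the fit of all genes ITGA11 was higher, against 12.5% of all genes, and ITGA10 had no call (adjusted p = 0.47). ITGA1 (ENSG00000213949, chr5:52787916-52959209, + strand), the α1 chain, had 44.4, 42.9 and 48.5 CPM with PBS and 80.6, 86.2 and 78.7 CPM with rhSema3C. Every treated sample was above every control, and the difference was far larger than the spread between replicates. ITGA1 rose 1.81-fold (log2 fold change 0.85, SE 0.06, adjusted p = 4.2e-07), a change larger in size than that of 90.7% of the tested genes. It remained higher with GC content (38.8%) and length removed, at 0.49 (SE 0.05, adjusted p = 5.9e-06). PELO, a ribosome rescue factor whose gene has the same start and strand as ITGA1 and shares 475 exonic bases, had counts of 89.2% of those of ITGA1 and a log2 fold change of 0.06 (adjusted p = 0.31), and the strand and overlap settings of the counting are not given in the sources used here.

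ITGA2 (ENSG00000164171, chr5:52989340-53094779, + strand), the α2 chain, lies 30130 bases downstream of ITGA1. It had 91.0, 83.2 and 88.2 CPM with PBS and 108, 119 and 113 CPM with rhSema3C. The groups did not overlap, and ITGA2 rose by a log2 fold change of 0.37 (SE 0.05, adjusted p = 7.3e-05). This call ended with GC content (40.2%) and length removed, where the value was 0.04 (SE 0.03, adjusted p = 0.33).

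ITGA11 (ENSG00000137809, chr15:68296532-68432163, − strand), the α11 chain of a receptor for fibrillar collagen found mainly on fibroblasts, was scarce and higher with rhSema3C. Its counts were 238, 183 and 182 with PBS and 721, 565 and 525 with rhSema3C. The lowest treated sample had more than any control. It lay below the filter, and in a fit of all 33900 genes it rose 2.53-fold (log2 fold change 1.34, SE 0.16, adjusted p = 0.0002). In that fit 12.5% of all genes were higher, and 3.79% were more than 2-fold higher at an unadjusted p below 0.05. With GC content (49.6%) and length removed it was 1.34 (SE 0.15, adjusted p = 0.00017). With limma it was 0.41 on log2(FPKM + 1) and 0.91 on log2(TPM + 1), where the added 1 shrinks the change of so low a gene. ITGA10, the remaining collagen-binding α subunit, had 28 to 83 counts and overlapping groups. Summed over the 4 collagen-binding α subunits, FPKM was 13.1 ± 0.645 with PBS and 19.8 ± 0.840 with rhSema3C, and ITGA2 made up most of the sum.

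ITGAV (ENSG00000138448, chr2:186590056-186680901, + strand), the α chain of the vitronectin receptors, and its β3 and β5 partners moved in opposite directions. ITGAV had 93.4, 81.1 and 86.9 CPM with PBS and 99.3, 119 and 106 CPM with rhSema3C. The groups were separate, although PBS replicate 1 came close to rhSema3C replicate 1. ITGAV rose by a log2 fold change of 0.31 (SE 0.07, adjusted p = 0.0024), and this call ended with GC content (38.3%) and length removed, at -0.04 (SE 0.04, adjusted p = 0.43).

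ITGB3 (ENSG00000259207, chr17:47253827-47313743, + strand), which also pairs with the platelet chain αIIb, had 57.5, 61.1 and 55.1 CPM with PBS and 40.0, 42.4 and 40.0 CPM with rhSema3C. All treated samples were below all controls, and ITGB3 fell 1.42-fold (log2 fold change -0.51, SE 0.06, adjusted p = 2e-05). ITGB5 (ENSG00000082781, chr3:124761948-124901418, − strand), which pairs with αV alone, had 86.0, 93.7 and 89.4 CPM with PBS and 63.5, 59.8 and 61.1 CPM with rhSema3C. It fell 1.46-fold (log2 fold change -0.54, SE 0.05, adjusted p = 2.9e-06), again without overlap. Both remained lower with GC content (52.3% and 54.3%) and length removed, at -0.36 (adjusted p = 0.00015) for ITGB3 and -0.35 (adjusted p = 9.9e-06) for ITGB5.

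ITGB8 (ENSG00000105855, chr7:20330702-20415754, + strand), whose product activates latent TGF-β when paired with αV, was barely expressed. Its counts were 123, 133 and 77 with PBS and 75, 185 and 166 with rhSema3C, and the groups overlapped. In the fit of all genes its log2 fold change was 0.10, with a 95% confidence interval from -0.69 to 0.88 (adjusted p = 0.89).

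Within each sample, the FPKM ratio of ITGB3 to ITGAV was 0.798, 0.977 and 0.823 with PBS and 0.522, 0.463 and 0.489 with rhSema3C. The ratio of ITGB5 to ITGAV was 1.16, 1.46 and 1.30 with PBS and 0.808, 0.635 and 0.726 with rhSema3C. For both β chains the ratio was lower in all 3 treated samples. Such ratios do not depend on the scaling between samples, but the GC contents of the genes differ. ITGB6, the other αV partner, was listed at 0 counts in all PBS samples and at 8, 17 and 7 counts with rhSema3C.

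**Figure D2:**
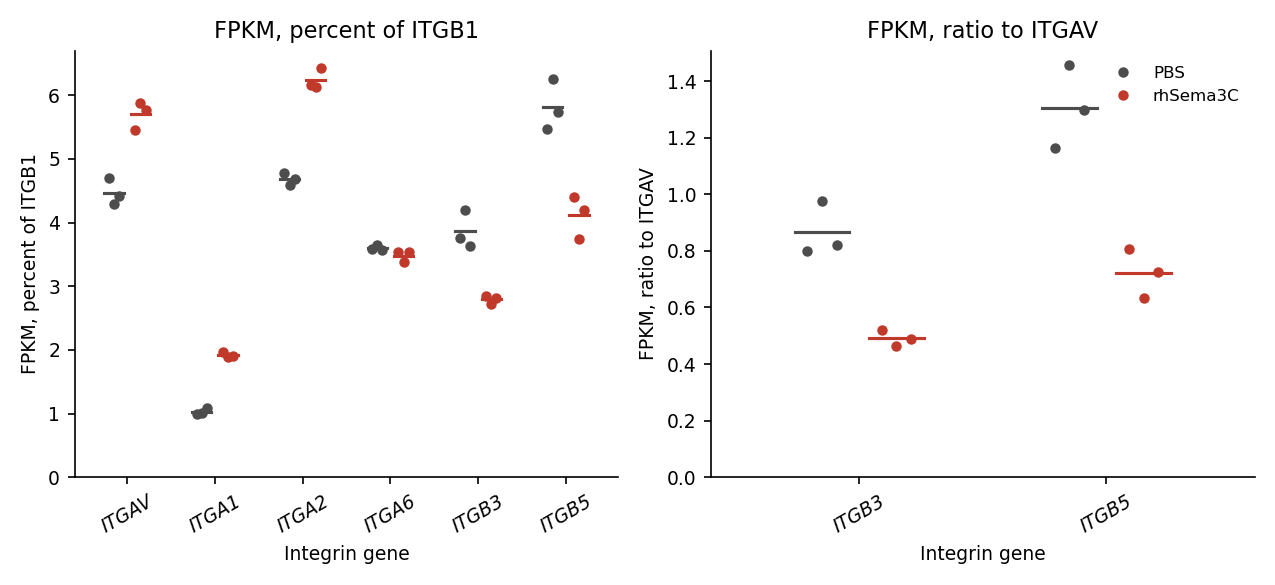
FPKM of 6 integrin genes as a percentage of ITGB1 in the same sample (left) and of ITGB3 and ITGB5 as a ratio to ITGAV (right), with 3 samples a group and bars at the means. The ratio of ITGB5 to ITGAV was above 1 in every PBS sample and below 1 in every rhSema3C sample, and ITGA1 went from 1.03% to 1.92% of ITGB1.

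The fibronectin receptor chain ITGA5 (ENSG00000161638, chr12:54395261-54419266, − strand) had 785, 815 and 819 CPM with PBS and 696, 641 and 657 CPM with rhSema3C. The groups were separate, and ITGA5 fell by 0.28 on the log2 scale (SE 0.04, adjusted p = 0.00018). The change was -0.09 (adjusted p = 0.042) with GC content (54.5%) and length removed, and -0.05 (adjusted p = 0.34) with limma under TPM scaling, where the call ended. ITGA6 (ENSG00000091409, chr2:172427354-172506459, + strand), a laminin-binding chain, had 58.1, 56.4 and 57.3 CPM with PBS and 52.6, 55.6 and 53.1 CPM with rhSema3C. The groups did not overlap, but the log2 fold change of -0.09 (SE 0.05, adjusted p = 0.13) did not pass the test. Its value was 0.13 (adjusted p = 0.038) under TPM scaling and -0.34 (adjusted p = 2.8e-05) with GC content (42.9%) and length removed.

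**Figure D3:**
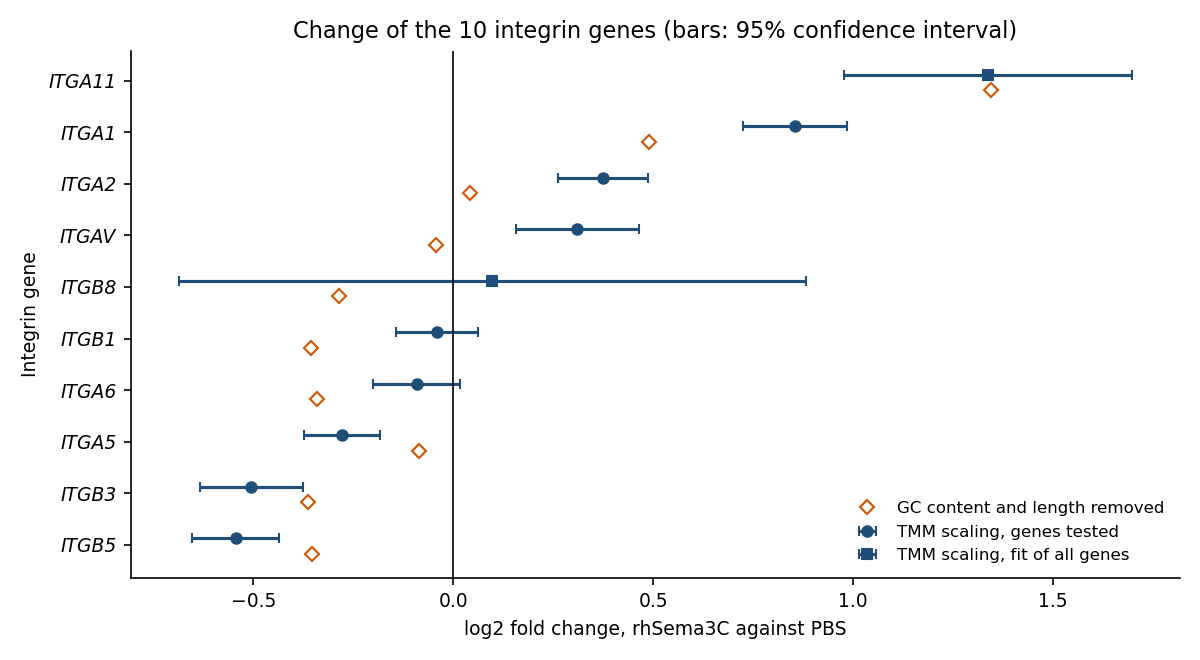
Log2 fold change of the 10 integrin genes between 3 rhSema3C and 3 PBS samples, with 95% confidence intervals, from the genes tested (circles) or from the fit of all genes (squares, ITGA11 and ITGB8), and without intervals after removal of GC content and transcript length (open diamonds). ITGA1 and ITGA11 stayed above 0 and ITGB3, ITGB5 and ITGA5 below 0 in both, while ITGA2 and ITGAV went to 0.04 and -0.04. ITGB1 went from -0.04 to -0.36, ITGA6 from -0.09 to -0.34 and ITGB8 from 0.10 to -0.29.

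**Figure D4:**
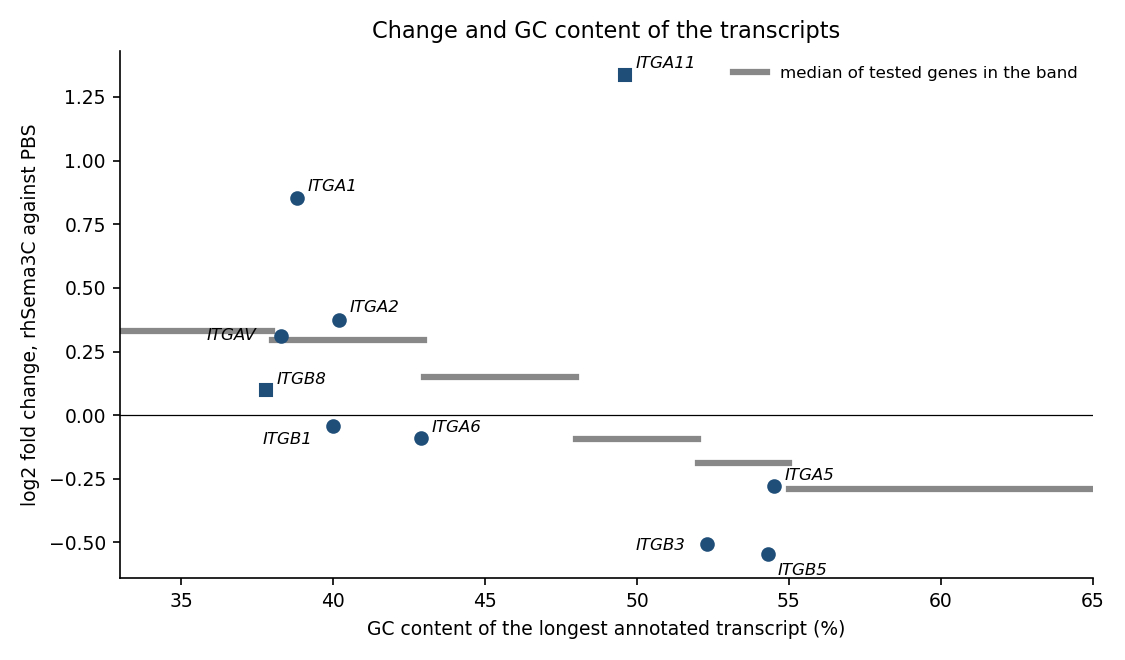
Log2 fold change of the 10 integrin genes against the GC content of the longest annotated transcript (points, squares for ITGA11 and ITGB8), with the median of the tested genes in 6 bands of GC content (grey lines, the outer bands cut at the axis limits). ITGAV lay at the median of genes of its composition, ITGA1 and ITGA11 above it, and ITGB1, ITGA6, ITGB3 and ITGB5 below it.

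Set against ITGB1 within each sample, log2 ratios of CPM changed by 0.90 for ITGA1, 0.42 for ITGA2, 0.35 for ITGAV and 1.38 for ITGA11, and by -0.46 for ITGB3, -0.50 for ITGB5, -0.24 for ITGA5 and -0.05 for ITGA6. The groups were separate for these 8 genes and overlapped for ITGB8, at 0.08. A two-sided exact permutation test of 3 against 3 samples cannot go below p = 0.1, which was its value for each of the 8, or 0.113 after Benjamini-Hochberg adjustment over 9 ratios, so none could pass. Among the 11 α partners of ITGB1 in the table (ITGA8 was not analysed here), ITGA3 and ITGA5 made up 52.8% and 33.7% of the summed FPKM with PBS and 51.7% and 31.4% with rhSema3C. ITGA1 made up 0.753% and 1.54%, and ITGA2 3.42% and 5.01%. ITGB1 made up 90.6% ± 0.576 of the FPKM of all 8 β chains with PBS and 92.9% ± 0.367 with rhSema3C. Neither the ratios to ITGB1 nor these shares were corrected for GC content and length. With both removed, the log2 fold changes of ITGB3 (-0.36), ITGB5 (-0.35) and ITGA6 (-0.34) were close to that of ITGB1 (-0.36). Those of ITGA5 (-0.09), ITGAV (-0.04), ITGA2 (0.04) and ITGA1 (0.49) were above it, as was ITGA11 (1.34) in the fit of all genes. ITGB8 was at -0.29 (SE 0.34) in that fit.

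The table held 15 further integrin subunits, of which 7 were tested. ITGAX, a leukocyte α chain, was higher by a log2 fold change of 0.52 (adjusted p = 6e-05), and the laminin-binding chains ITGA7 (-0.48, adjusted p = 4.2e-05) and ITGA3 (-0.21, adjusted p = 0.0024) were lower. The ITGA3 value was 0.06 (adjusted p = 0.12) with GC content and length removed, and its call also ended with library size alone, in both limma fits on FPKM and under TPM scaling. ITGA7 was at -0.21 (adjusted p = 0.0043) and ITGAX at 0.75 (adjusted p = 3.8e-06) with GC content and length removed. ITGA2B, ITGA4, ITGAE and ITGB4 had no call. With GC content and length removed, ITGB4 (0.42, adjusted p = 0.0059), ITGA2B (0.42, adjusted p = 0.04) and ITGAE (0.22, adjusted p = 0.049) were higher. ITGB2, the β chain of leukocyte integrins and below the filter, had 286, 217 and 229 counts with PBS and 63, 83 and 130 with rhSema3C, and fell by 1.65 on the log2 scale in the fit of all genes (adjusted p = 0.0018), and its antisense transcript ITGB2-AS1, which shares 303 exonic bases, was also lower, at -2.34.

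The Sema3C receptors differed from one another. NRP1, the neuropilin the study pairs with ITGB1, had 263, 266 and 276 CPM with PBS and 390, 389 and 372 CPM with rhSema3C. All treated samples were higher, with a log2 fold change of 0.52 (SE 0.04, adjusted p = 1.1e-06), and 0.33 (adjusted p = 1.2e-05) with GC content and length removed. NRP2 was lower at -0.21 (adjusted p = 0.028), with overlapping groups, and this call ended with GC content and length removed, at -0.15 (adjusted p = 0.055). It also ended with library size alone, in both limma fits on FPKM, in the fit of all genes, and without PBS replicate 2 or 3 or rhSema3C replicate 2 or 3, and the value was 0.014 under TPM scaling. Of 7 receptor genes tested, 1 was higher and 3 were lower, against 31.7% and 30.6% of all tested genes. With GC content and length removed, 4 were higher and 1 lower, against 24.7% and 31.1% of all tested genes in that fit.

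The mRNAs of proteins that connect integrins to actin were mostly lower. Among 29 tested focal adhesion adaptors and kinases, 2 were higher and 21 lower, against 31.7% and 30.6% of all tested genes. Their median log2 fold change was -0.39, against 0.02 for all tested genes. The actin crosslinker ACTN4 fell by 1.19 on the log2 scale (adjusted p = 2.4e-08) and the LIM protein CSRP1 by 0.88 (adjusted p = 2.9e-08), while the focal adhesion kinase gene PTK2 rose by 0.49 (adjusted p = 1.2e-05) and the adaptor LIMS1 by 0.22 (adjusted p = 0.003). TPM scaling, where 2428 of all tested genes were lower, left 13 lower. Removal of GC content and length, where 31.1% of all tested genes were lower, left 20, with LIMS1 then at -0.07. Of 13 integrin activators and inactivators, 5 were higher and 4 lower, against 31.7% and 30.6% of all tested genes, with a median of -0.02. With GC content and length removed, 3 were higher and 6 lower, against 24.7% and 31.1% of all tested genes. The talins TLN1 and TLN2, which bind β tails and switch integrins on, both fell by 0.53 (adjusted p = 3e-06 and 1.6e-05), whereas the small GTPase RAP1A (0.35, adjusted p = 0.00059) and KRIT1 (0.41, adjusted p = 0.0017) rose. With GC content and length removed, the talins stayed lower and RAP1A and KRIT1 had no call, at 0.01 and 0.08.

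The tetraspanins and other membrane partners of integrins were lower almost throughout, with 1 higher and 13 lower of 15 tested and a median of -0.51. Among all tested genes, 31.7% were higher and 30.6% lower. CD151, the tetraspanin that binds laminin-binding integrins, fell by 0.85 (adjusted p = 2.3e-08), the heparan sulfate proteoglycan SDC1 by 0.68 (adjusted p = 4.8e-07), and CD47, a partner of αVβ3, rose by 0.25 (adjusted p = 0.0011), a value that was -0.09 with GC content and length removed. In the trafficking list, 5 genes were higher and 7 lower of 15 tested, against 31.7% and 30.6% of all tested genes, with a median of 0.01. The early endosome GTPase RAB5A rose by 0.54 (adjusted p = 3.4e-05) and WASHC1 of the WASH complex by 0.48 (adjusted p = 0.0042), while the recycling factor EHD1 fell by 1.24 (adjusted p = 4.7e-09) and RAB35 by 0.68 (adjusted p = 1.1e-06).

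Among 30 tested matrix ligands of integrins, 4 were higher and 13 lower, against 31.7% and 30.6% of all tested genes, with a median of -0.07. The collagen VI chain COL6A3 rose by 0.99 (adjusted p = 2e-07) and fibrillin FBN1 by 0.36 (adjusted p = 0.00016). The matricellular genes CCN2 and THBS1 fell by 2.40 (adjusted p = 6.8e-11) and 1.27 (adjusted p = 1.4e-06). COL1A1, the α1 chain of collagen I and a ligand of the collagen-binding integrins, fell by 0.78 (adjusted p = 4.1e-07), whereas DDR2, a collagen receptor that is no integrin, rose by 1.06 (adjusted p = 8.5e-09). With GC content and length removed, 11 ligands were higher and 16 lower, against 24.7% and 31.1% of all tested genes. All 8 tested genes of latent TGF-β, the cargo of αV integrins, had a call, 2 higher and 6 lower with a median of -0.55. Among all tested genes, 31.7% were called higher and 30.6% lower. LTBP1, which anchors the latent complex to the matrix, rose by 0.64 (adjusted p = 1.8e-05) and LTBP4 by 0.21 (adjusted p = 0.018). TGFB2 fell by 1.01 (adjusted p = 8.2e-06) and NRROS, which holds latent TGF-β at the cell surface, by 0.71 (adjusted p = 0.00012). The LTBP4 call ended in the fit of all genes, at 0.20 (adjusted p = 0.064), and its value was 0.12 (adjusted p = 0.047) without PBS replicate 1.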

How the data were processed

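RNA of 3 rhSema3C-treated and 3 PBS-treated LX-2 samples was sequenced from mRNA libraries. The authors deposited a whole-number count per gene, not normalised, and an FPKM value scaled by the authors to gene length and library size. The methods name Cufflinks; the aligner, its version and the strand setting are not given in the sources used here. The gene identifiers were compared with GENCODE 29 (GRCh38), where 32887 of 33900 were found and 99.95% of these had overlapping spans. The groups were taken from the sample labels. Counts were tested with edgeR 4.0.16 in R 4.3.3 (quasi-likelihood test, TMM factors, 14178 genes whose mean FPKM reached 0.5), with Benjamini-Hochberg adjustment of the p-values over all genes tested. Genes below the filter were taken from the same fit of all 33900 genes. DESeq2 1.42.0, limma 3.58.1, other scalings, other filters, a replicate block and the omission of single samples were alternatives. Another, chosen after the data were seen, removed splines with 4 degrees of freedom on the GC content and length of the longest transcript, available for 99.42% of the genes tested. Tests were tried on simulated data. No library was a copy of another, since chi-square over its degrees of freedom was 12.6 to 20.4 between replicates. The 10 genes and the gene lists were chosen with earlier results of these data known. The genes named were the 10, the other integrin subunits, NRP1 and NRP2, and up to 2 rises and 2 falls per list that passed the test, had separate groups and averaged 1 FPKM or more, and PELO, ITGB1-DT and ITGB2-AS1 were added for their overlap with integrin genes. Endothelial and epithelial marker lists gave sums of at most 2.39 and 5.82 FPKM.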

Additional observations from a re-analysis of the deposited data

How the results depend on the processing

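The directions and calls of ITGB3, ITGB5 and ITGA1 held in every fit that tested them, and those of ITGAV and ITGA2 in every one except that with GC content and length removed. ITGA1 was not tested at a mean FPKM of at least 5. With GC content and length removed, 1 of the integrin genes was higher and 5 were lower (3509 and 4411 of all genes tested), the ITGB1 log2 fold change was past the threshold at -0.36, ITGAV was at -0.043, ITGB8 at -0.29 and ITGA3 at 0.061. In that fit the LIMS1 log2 fold change was -0.0746, the CD47 log2 fold change -0.0949 and the PELO log2 fold change -0.0835. With TPM scaling, 5 of the integrin genes were higher, ITGB1 was at 0.18, ITGA6 at 0.13, ITGA3 at 0.021 and NRP2 at 0.014, and over all genes 6934 were higher and 2428 lower, against 4490 and 4339. ITGB1 was also above 0 with limma on log2(FPKM + 1) and on log2(FPKM + 0.1) (0.060 in each), with library size alone (0.066) and at a mean FPKM of at least 5 (0.060), none past the threshold, and the ITGA6 log2 fold change was then 0.00997, 0.011, 0.016 and 0.00992. In the fit of all genes, 1 of the 10 genes (ITGA11) was past 2-fold. Leaving out each replicate in turn kept 3 genes higher and 3 lower, with ITGB1 between -0.09 and -0.02, the ITGB8 log2 fold change between -0.066 and 0.42, and the log2 ratio of ITGB8 to ITGB1 between -0.13 and 0.46. The cause was not tested. Samples with the same replicate number shared only a number (correlations of their deviations -0.08, -0.05 and -0.04), and with a replicate block 3 integrin genes were higher and 3 lower, with 4221 higher and 4120 lower over all genes. At 75 to 185 counts a sample, ITGB8 had the widest interval of the 10 genes.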
